A study of Homo sapiens with 12 samples.

Results

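The UBE2 genes encode the E2 enzymes, which carry ubiquitin or a ubiquitin-like protein from an activating enzyme to a substrate. Of the 14029 human genes with values in this experiment, 35 have a current symbol that begins with UBE2, and these 35 are described here. They were chosen by name and not by any measured value. Of further UBE2 names in the gene name table, UBE2F-SCLY, UBE2QL1 and UBE2U have no row in the table as used and are not analysed here. Every one of the 35 was tested.

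Ubiquitin is attached to proteins by a relay of enzymes. An E1 enzyme activates ubiquitin and passes it to a cysteine of an E2, and an E3 ligase brings the loaded E2 to its substrate. The choice of E2 largely sets which kind of ubiquitin chain is built, such as chains through lysine 48 that direct proteins to the proteasome or chains through lysine 63 that serve in DNA damage signalling. Some E2 enzymes carry other proteins of the ubiquitin fold, such as NEDD8 or ISG15. Several E2 enzymes act in the response to DNA crosslinks of the kind that platinum drugs make.

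The cells were ES-2, an established human ovarian cancer line. The groups compared were 3 libraries of cells with an SRMS shRNA (genotype given as SRMS knockdown) and 3 of cells with a control vector (genotype given as WT), all of which had received 15 µM cisplatin, a DNA-crosslinking drug, for 8 h. SRMS is a non-receptor tyrosine kinase. The series has 12 samples, and the 6 that received phosphate-buffered saline are not analysed here, so all values are for cisplatin-treated cells and no effect of cisplatin was measured. The labels name no hairpin sequence and no number of hairpins or clones. Nothing in them states separate cultures for the replicates, and p-values therefore reflect only the spread of these libraries, which may be technical.

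Each value is a signal: a gene's reads over the effective size of its library, on the scale of CPM. The listed genes held 28009232 to 38072051 reads in SRMS shRNA libraries and 29072793 to 56855428 reads in vector libraries. SRMS itself was at the edge of detection, with a signal of 0.755 ± 0.384 in the libraries labelled SRMS shRNA and 0.397 ± 0.384 in vector libraries (SD, n = 3 each), which is 0.52 on the log2 scale (limma adjusted p = 0.168), so the values do not show the targeted transcript lower and SRMS shRNA is used here as the label of a library. Of 9 ovarian carcinoma markers 5 had rows: KRT7, KRT8 and KRT18 were abundant, PAX8 was at 0.241 in SRMS shRNA libraries and 0.136 in vector libraries, and EPCAM, MUC16 and CDH1 were among those with no row. Of 6 leukocyte markers 3 had rows, with summed signal of 60.2 to 64.6 in SRMS shRNA and 49.3 to 52.1 in vector libraries. The 3 endothelial markers of 5 with rows summed to 5.88 to 8.36 in SRMS shRNA and 14.8 to 16.8 in vector libraries, and the 4 fibroblast markers of 6 with rows, almost all COL1A1, to 820.7 to 827.4 in SRMS shRNA and 1246 to 1250 in vector libraries. These marker sums differed between the groups, and their part in the results on UBE2 genes was not tested.

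Promoter sequences are shown for UBE2S and UBE2T, which were higher in SRMS shRNA cells, and for UBE2O, the member with the largest decrease among those that passed, as examples of windows with and without motif matches. Each runs 5′ to 3′ on the minus strand from 250 bases before to 50 bases after the start site in RefSeq (GRCh38.p14). The windows lie at chr19:55407739-55408038 for UBE2S, chr1:202341887-202342186 for UBE2T and chr17:76453103-76453402 for UBE2O. Capitals mark matches to 6 motifs searched on both strands: CCAAT (bound by NF-Y), the cell-cycle homology region TTTGAA, the E2F motif GCGGGAA, the cyclic AMP response element TGACGTCA, the interferon-stimulated response element and the NRF1 motif.
UBE2S: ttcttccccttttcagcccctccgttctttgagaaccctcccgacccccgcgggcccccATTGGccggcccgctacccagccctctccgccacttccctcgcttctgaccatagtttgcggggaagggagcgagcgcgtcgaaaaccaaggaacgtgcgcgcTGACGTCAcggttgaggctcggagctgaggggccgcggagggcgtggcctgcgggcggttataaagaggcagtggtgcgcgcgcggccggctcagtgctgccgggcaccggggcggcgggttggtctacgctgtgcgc
UBE2T: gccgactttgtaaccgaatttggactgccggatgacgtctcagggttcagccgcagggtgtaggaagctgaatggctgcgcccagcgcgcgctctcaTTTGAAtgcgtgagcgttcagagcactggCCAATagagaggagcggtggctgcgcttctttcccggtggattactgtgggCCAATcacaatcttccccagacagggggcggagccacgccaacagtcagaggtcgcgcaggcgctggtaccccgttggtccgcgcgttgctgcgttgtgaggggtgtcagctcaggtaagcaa
UBE2O: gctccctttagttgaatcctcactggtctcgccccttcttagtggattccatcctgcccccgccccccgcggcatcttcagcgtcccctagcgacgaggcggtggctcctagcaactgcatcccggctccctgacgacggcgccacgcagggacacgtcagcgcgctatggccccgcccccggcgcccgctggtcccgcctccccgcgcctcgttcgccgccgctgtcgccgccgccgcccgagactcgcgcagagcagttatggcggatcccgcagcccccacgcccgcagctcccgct
The UBE2S window holds CCAAT in reverse at -191 and TGACGTCA at -88, counted from the start site. The UBE2T window holds TTTGAA at -153 and CCAAT at -124 and -73. The UBE2O window holds none of the 6 motifs. These examples do not stand for the calls. Of the other higher members with an entry, UBE2D3, UBE2E1 and UBE2E3 held a match, and UBE2A, UBE2E2, UBE2L6, UBE2M and UBE2V1 held none. Among the other lower members with an entry, UBE2K and UBE2Z held a match and UBE2G1 held none. CCAAT occurred in 35.0% of the 16462 RefSeq windows of genes measured here and in 10 of the 37 windows of members. Those 10 belong to 8 of the 25 members with an entry, some of which have several windows. TTTGAA occurred in 10.9% of the 16462 windows and in 2 of the 37 member windows. TGACGTCA occurred in 2.68% of the 16462 windows and in 1 member window, that of UBE2S. A match is a run of letters, and no binding was measured. UBE2B, UBE2C, UBE2H, UBE2L5, UBE2NL, UBE2Q1, UBE2Q2P16, UBE2V2 and UBE2W were among the members with no promoter entry.

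In SRMS shRNA cells 12 of the 35 UBE2 genes were higher, 5 were lower and 18 did not pass the test (limma on log2(signal + 0.5), Benjamini-Hochberg adjusted p under 0.05). Over all 14029 genes, 26.6% were higher and 30.2% were lower, against 34.3% and 14.3% of UBE2 genes. The median log2 fold change of the UBE2 genes was 0.04, with a range of -0.76 to 0.54, beside 0.0031 over all genes. Changes were modest: 4 of 35 moved by at least 0.5 on the log2 scale (11.4%), beside 17.1% of all genes. The groups did not overlap for 20 members, 12 higher and 8 lower (57.1%), beside 62.7% of all genes. Both counts moved when 1 library was left out. The lower count was smallest, at 3, without SRMS shRNA replicate 3 and without vector replicate 2. In those fits 26.6% and 26.4% of all genes were lower. With the replicate number as a block, 15 members were higher and 10 lower, beside 31% and 34.3% of all genes. With libraries scaled to the same median, 17 members were higher and 2 lower, beside 44.6% and 17.9% of all genes. The summed signal of the family was 2406 to 2710 in SRMS shRNA libraries and 2172 to 2379 in vector libraries.

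**Figure D1:**
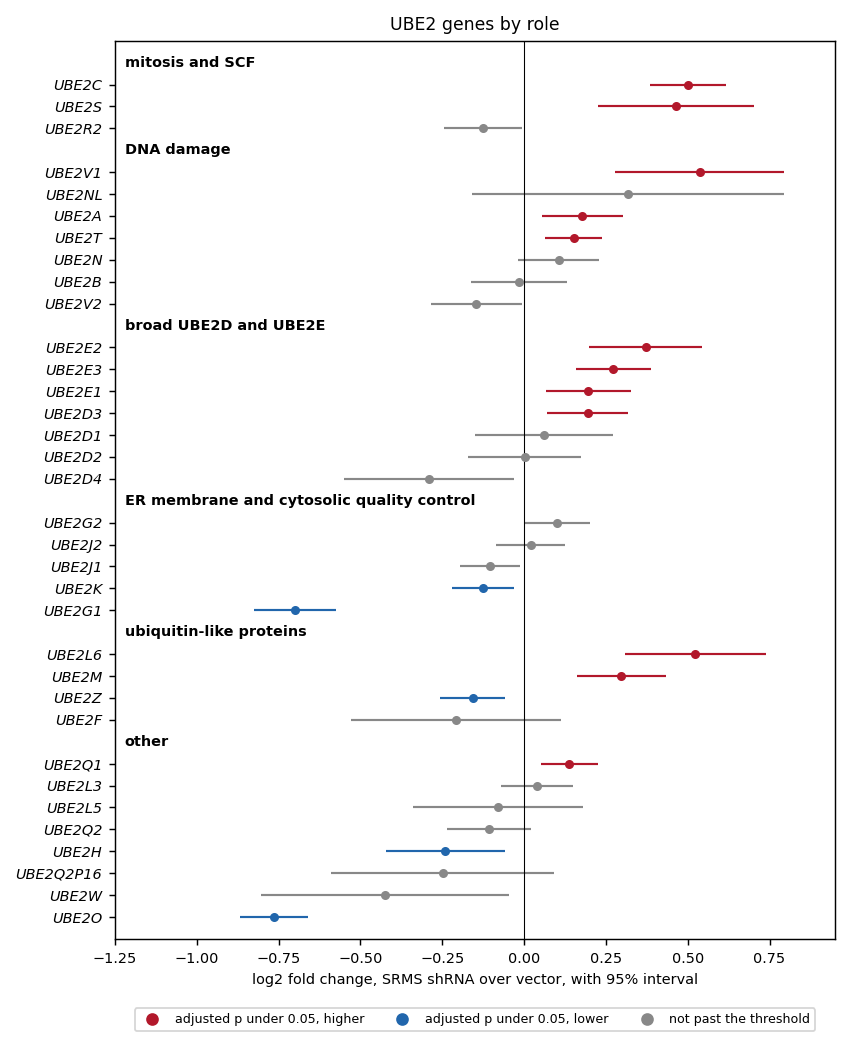
Log2 fold change of 34 of the 35 UBE2 genes, SRMS shRNA over vector in cisplatin, grouped by role, with 95% intervals from limma. Red points passed the threshold as higher (12 genes), blue points as lower (5 genes) and grey points did not pass (17 genes).

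Per kilobase of transcript, the enzymes of mitosis led the family. UBE2C was at 262 ± 15.1 signal per kb in SRMS shRNA cells and 185 ± 10.5 in vector cells, and UBE2S followed at 224 ± 34.1 in SRMS shRNA cells and 161 ± 18.4 in vector cells (SD, n = 3 each). Their intervals of 1 SD overlapped in both groups. UBE2M came next at 109 ± 9.16 signal per kb in SRMS shRNA and 88.3 ± 4.75 in vector cells, then UBE2T at 86.3 ± 1.72 in SRMS shRNA and 77.6 ± 2.11 in vector cells. At the low end, UBE2L5, UBE2F, UBE2NL and UBE2W stood below 1 signal per kb in both groups. The low UBE2F and UBE2V1 levels are uncertain, because GENCODE 29 places each inside an overlapping readthrough gene that has no row in the table as used. UBE2NL, UBE2L5, UBE2Q2P16 and the UBE2D genes have near-identical copies, so their reads may be shared between copies.

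**Figure D2:**
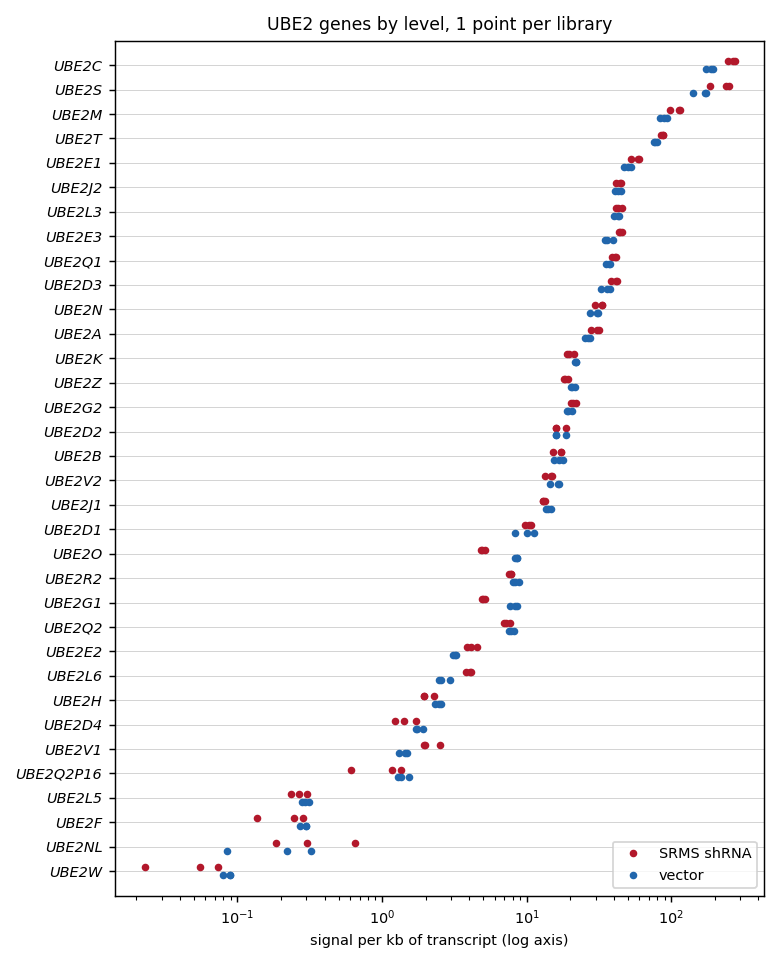
Signal per kb of transcript for 34 of the 35 UBE2 genes on a log axis, 1 point per library, SRMS shRNA in red and vector in blue. Genes run in order of level, led by UBE2C and UBE2S and ending with UBE2W.

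Both E2 enzymes of the anaphase-promoting complex were higher in SRMS shRNA cells. UBE2C, which starts ubiquitin chains on mitotic substrates such as cyclin B and securin, had a signal of 209, 234 and 227 in SRMS shRNA libraries and 148, 160 and 165 in vector libraries. UBE2C lies at chr20:45812576-45816957 on the plus strand (GRCh38, GENCODE 29). The groups did not overlap. On the log2 scale the difference was 0.50 (SE 0.0522, 95% interval 0.38 to 0.62, limma adjusted p = 2.56e-05). UBE2S, which extends those chains through lysine 11, had a signal of 471, 634 and 604 in SRMS shRNA libraries and 358, 433 and 444 in vector libraries. Again every SRMS shRNA library lay above every vector library, with a log2 fold change of 0.46 (SE 0.107, 95% interval 0.23 to 0.70, limma adjusted p = 0.00393). After removal of a trend with transcript length and GC content, within replicate blocks, the UBE2C value was 0.14 and that of UBE2S 0.40, and both still passed. Bulk RNA cannot tell a larger share of mitotic cells from more of these transcripts per cell. UBE2R2, a relative of CDC34 that works with SCF cullin ligases, had a signal of 30.5, 31.7 and 31.8 in SRMS shRNA libraries and 32.5, 34.0 and 36.3 in vector libraries. Its log2 fold change of -0.13 did not pass (adjusted p = 0.0679) but did with the replicate block (adjusted p = 0.0151) and without vector replicate 1 (adjusted p = 0.036).

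The ligase and the mitotic programme around these 2 enzymes moved in both directions. Of 17 measured subunits and activators of the anaphase-promoting complex, 8 were higher and 5 lower, beside 26.6% and 30.2% of all genes. ANAPC11, the RING subunit that holds the E2, was higher with a log2 fold change of 0.56, and ANAPC15 with 0.53. CDC27, a scaffold subunit, and FZR1, the activator of late mitosis and G1, were lower, with log2 fold changes of -0.56 and -0.72. Of 20 mitotic genes 5 were higher and 9 lower, among them CCNF at -1.14 and the spindle motor KIF11 at -0.69. The median of the mitotic list was -0.07, beside 0.50 and 0.46 for UBE2C and UBE2S. When libraries were scaled to the same median, which moves the median of all genes to 0.16, the median of the mitotic list turned to 0.09. Then 10 of its genes were higher and 8 lower, beside 44.6% and 17.9% of all genes.

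Of 7 members grouped here under DNA damage, 3 were higher and none was lower, beside 26.6% and 30.2% of all genes. The group takes in UBE2V1, described below by a role in NF-κB signalling, and UBE2NL, with 3 to 24 reads per library. The 3 higher were UBE2V1, UBE2A and UBE2T. With the trend for length and GC taken out within replicate blocks, UBE2V1 stayed higher, UBE2A did not pass and UBE2T was called lower. UBE2V1, the catalytically inactive partner that lets UBE2N build lysine 63 chains for NF-κB signalling, had a signal of 5.40, 4.23 and 4.16 in SRMS shRNA libraries and 2.78, 3.17 and 3.05 in vector libraries. Its log2 fold change was 0.54 (SE 0.116, 95% interval 0.28 to 0.79, limma adjusted p = 0.00271, and 0.43 without SRMS shRNA replicate 1), on 83 to 175 reads per library. Its relative UBE2V2, the UBE2N partner used when the clamp PCNA is polyubiquitinated, had a signal of 58.6, 65.5 and 64.7 in SRMS shRNA libraries and 63.6, 73.2 and 72.3 in vector libraries. The groups overlapped, and the log2 fold change of -0.15 did not pass (adjusted p = 0.0692), but did with the replicate block (adjusted p = 0.00038), without vector replicate 1 (adjusted p = 0.0108) and with replicate 1 of both groups left out (adjusted p = 0.000293). UBE2N itself was at 166 ± 9.66 in SRMS shRNA and 154 ± 10.0 in vector cells (SD, n = 3 each), a log2 fold change of 0.11 that passed with the block (adjusted p = 0.000588) and without SRMS shRNA replicate 1 (adjusted p = 0.0144) but not in the main test (adjusted p = 0.128). It also passed with replicate 1 of both groups left out (adjusted p = 0.000981). The UBE2N value was larger under median scaling (0.27, adjusted p = 0.00296). With the trend for length and GC taken out within replicate blocks it was 0.31 (adjusted p = 1.47e-12).

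UBE2A and UBE2B are the human forms of yeast Rad6 and, with the ligase RAD18, mark PCNA at stalled replication forks. UBE2A had a signal of 52.0, 59.1 and 56.9 in SRMS shRNA libraries and 47.2, 49.3 and 51.7 in vector libraries, or 0.18 higher on the log2 scale (limma adjusted p = 0.0199). The lowest SRMS shRNA library stood just above the highest vector library, and the call was lost without vector replicate 1 or 2 or SRMS shRNA replicate 2 or 3 (adjusted p = 0.0692, 0.0567, 0.086 and 0.0667). With a trend for length and GC taken out within replicate blocks the UBE2A value was 0.07 (adjusted p = 0.087). UBE2B was at 41.5 ± 3.0 in SRMS shRNA and 41.9 ± 2.83 in vector cells (SD, n = 3 each; 95% interval of the log2 fold change -0.16 to 0.13). UBE2T, the E2 of the Fanconi anaemia pathway that with FANCL marks FANCD2 at DNA crosslinks, had a signal of 76.5, 79.0 and 79.5 in SRMS shRNA libraries and 69.2, 69.5 and 72.7 in vector libraries. This was a log2 fold change of 0.15 (SE 0.0391, limma adjusted p = 0.00724). With the trend for length and GC taken out within replicate blocks the sign turned to -0.15 (adjusted p = 4.09e-05), so the direction of UBE2T depends on that step. UBE2NL, an intronless relative of UBE2N, had 3 to 24 reads per library and its log2 fold change of 0.32 did not pass (adjusted p = 0.232).

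The E3 ligases and chain readers that work with these enzymes were mostly lower. Of 21 measured, 17 were lower and 1 was higher, and their log2 fold changes had a median of -0.33. Over all genes 30.2% were lower and 26.6% higher, and in the longest bin, from 4795 nt, 52.5% were lower. BARD1, the partner of BRCA1, was at 5.23 ± 0.0901 in SRMS shRNA and 12.3 ± 0.615 in vector cells, and UIMC1, which reads lysine 63 chains at breaks, at 21.2 ± 0.676 in SRMS shRNA and 31.6 ± 1.22 in vector cells (SD, n = 3 each). UBR2, a large ligase of the N-degron pathway, had a log2 fold change of -0.51. With median scaling 11 of the 21 were lower and 2 higher, beside 17.9% and 44.6% of all genes. The median transcript of these partners is 5499 nt long, beside 2702 nt for the UBE2 genes. With the trend for length and GC taken out 13 were lower and 3 higher, beside 34% and 27% of all genes, and the median was -0.13.

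The UBE2D and UBE2E enzymes serve many ligases, and 4 of 7 were higher and none lower, beside 26.6% and 30.2% of all genes. All 3 UBE2E genes were among the 4. UBE2E2 had a signal of 10.7, 11.3 and 12.4 in SRMS shRNA libraries and 8.93, 8.75 and 8.50 in vector libraries, a log2 fold change of 0.37 (SE 0.0779, limma adjusted p = 0.00221). UBE2E3 had a signal of 67.7, 69.7 and 71.6 in SRMS shRNA libraries and 54.9, 56.0 and 62.1 in vector libraries, a log2 fold change of 0.27 (SE 0.0519, limma adjusted p = 0.00124), which was 0.08 with the trend for length and GC taken out. In neither gene did the groups overlap. UBE2E1 had a signal of 79.5, 88.9 and 90.8 in SRMS shRNA libraries and 71.1, 79.5 and 75.3 in vector libraries, a log2 fold change of 0.20 (adjusted p = 0.0150) that did not pass without vector replicate 1 or SRMS shRNA replicate 2 or 3 (adjusted p = 0.0557, 0.0602 and 0.0673), and was 0.02 with the trend for length and GC taken out (adjusted p = 0.506).

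UBE2D3, the most abundant UBE2D gene per kilobase, had a signal of 91.5, 98.6 and 99.8 in SRMS shRNA libraries and 78.3, 90.0 and 85.2 in vector libraries. The log2 fold change was 0.19 (limma adjusted p = 0.0122), and 0.17 without SRMS shRNA replicate 3, which did not pass (adjusted p = 0.0531). UBE2D2 was at 45.5 ± 4.44 in SRMS shRNA and 45.4 ± 4.09 in vector cells, and UBE2D1 at 27.3 ± 1.34 in SRMS shRNA and 26.3 ± 3.96 in vector cells (SD, n = 3 each), and neither passed under any of 17 alternatives. UBE2D4, the scarcest of the 4, had a signal of 4.85, 5.66 and 6.84 in SRMS shRNA libraries and 6.82, 6.94 and 7.63 in vector libraries. The groups overlapped by 1 library, and its log2 fold change of -0.29 did not pass (adjusted p = 0.0549), but did with the block (adjusted p = 0.0093), without SRMS shRNA replicate 3 (adjusted p = 0.0116) and with a filter at a mean log2 value of 1 (adjusted p = 0.0485).

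Of 5 E2 enzymes assigned here to quality control at the endoplasmic reticulum membrane or in the cytosol, 2 were lower, UBE2G1 and UBE2K. None of the 5 was higher, and over all genes 30.2% were lower and 26.6% higher. UBE2G1, which extends lysine 48 chains on substrates of cullin ligases, had a signal of 19.4, 19.8 and 20.4 in SRMS shRNA libraries and 33.2, 30.6 and 33.9 in vector libraries. The groups were far apart, with a log2 fold change of -0.70 (SE 0.0563, 95% interval -0.82 to -0.57, limma adjusted p = 4.68e-06). UBE2G2, its nearest relative and an E2 of endoplasmic reticulum-associated degradation, had a signal of 77.5, 72.4 and 74.3 in SRMS shRNA libraries and 73.3, 67.3 and 68.5 in vector libraries. Its log2 fold change of 0.10 did not pass (adjusted p = 0.0823), but 5 alternatives called it higher, among them the block (adjusted p = 0.00669), median scaling (0.26, adjusted p = 0.000502) and the fit without vector replicate 1 (adjusted p = 0.0303). UBE2K, which builds lysine 48 chains, had a signal of 99.8, 110 and 104 in SRMS shRNA libraries and 115, 115 and 113 in vector libraries. Its log2 fold change of -0.13 (limma adjusted p = 0.0274) passed in the main test but was lost when any library other than SRMS shRNA replicate 2 was left out (adjusted p = 0.0523 to 0.0863). Its sign turned under median scaling, where it did not pass. Once the trend for length and GC was removed within replicate blocks, UBE2K was called higher (0.084, limma adjusted p = 0.0133). UBE2J1 and UBE2J2 are anchored in the endoplasmic reticulum membrane. UBE2J1 was at 56.2 ± 0.876 in SRMS shRNA and 60.5 ± 2.06 in vector cells (SD, n = 3 each; adjusted p = 0.0553, 0.0101 with the block and 0.0458 without vector replicate 1), and UBE2J2 at 75.1 ± 3.23 in SRMS shRNA and 74.0 ± 3.33 in vector cells (adjusted p = 0.744). UBE2J2 was called lower once the length and GC trend was removed (-0.19, adjusted p = 2.77e-06) but higher under median scaling (0.18, adjusted p = 0.00986).

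The degradation partners of UBE2G2 and UBE2J1 were mixed, with 3 of 14 higher and 5 lower, beside 26.6% and 30.2% of all genes. AUP1, which recruits UBE2G2 to membranes, was higher with a log2 fold change of 0.31, and TMEM129, a ligase that works with UBE2J2, with 0.33. SEL1L, the adaptor of the HRD1 ligase, was lower at -0.64 and the ligase MARCHF6 at -0.41. With median scaling 8 of the 14 were higher and 2 lower, beside 44.6% and 17.9% of all genes.

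Of 5 E2 enzymes that carry ubiquitin-like proteins, UBE2L6 and UBE2M were higher and UBE2Z was lower. Over all genes 26.6% were higher and 30.2% lower. UBE2L6, the E2 of the interferon-induced modifier ISG15, had a signal of 5.55, 5.47 and 5.18 in SRMS shRNA libraries and 3.48, 3.36 and 3.99 in vector libraries. The groups did not overlap, with a log2 fold change of 0.52 (SE 0.0964, 95% interval 0.31 to 0.74, limma adjusted p = 0.00101). Its E1, UBA7, was also higher with a log2 fold change of 0.64, and so was ISG15 itself, chosen as its cargo after its values were seen, at 0.69. UBE2L6 was at 0.26 with the trend for length and GC taken out (adjusted p = 0.0361).

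UBE2M, which passes NEDD8 to cullins with RBX1, had a signal of 148, 174 and 170 in SRMS shRNA libraries and 126, 134 and 140 in vector libraries. The increase was 0.30 on the log2 scale (SE 0.0613, limma adjusted p = 0.00202), and -0.01 with the trend for length and GC taken out (adjusted p = 0.844). UBE2F, the NEDD8 E2 that pairs with RNF7, had 8 to 33 reads per library and did not pass (log2 fold change -0.21, adjusted p = 0.243). Around them, 3 of 17 genes of cullin neddylation were higher and 11 lower, beside 26.6% and 30.2% of all genes. RNF7 was higher at 0.44, while CUL1 was lower at -0.57, CUL2 at -0.41 and the cullin exchange factor CAND1 at -0.39. With median scaling 5 of the 17 were higher and 7 lower, beside 44.6% and 17.9% of all genes. With the trend for length and GC taken out within replicate blocks 2 were higher and 11 lower, beside 27% and 34% of all genes.

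UBE2Z, which is loaded by UBA6 and carries ubiquitin and FAT10, had a signal of 60.4, 57.7 and 56.3 in SRMS shRNA libraries and 67.4, 64.0 and 63.2 in vector libraries. Its log2 fold change was -0.16 (limma adjusted p = 0.0125), with no pass without SRMS shRNA replicate 3 (adjusted p = 0.0551) and a value of 0.0037 under median scaling. UBA6 was lower as well, at -0.46.

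UBE2O showed the largest decrease among the UBE2 genes that passed. It is a large enzyme that acts as E2 and E3 in one chain and clears surplus proteins, such as unassembled ribosomal proteins in maturing red cells. It had a signal of 26.8, 27.8 and 26.1 in SRMS shRNA libraries and 45.3, 46.3 and 46.5 in vector libraries. The replicates of each group were close and the groups far apart, with a log2 fold change of -0.76 (SE 0.0463, 95% interval -0.87 to -0.66, limma adjusted p = 9.4e-07), that is, its signal fell by 41.6%. UBE2O lies at chr17:76389451-76453206 on the minus strand, on the same chromosome as UBE2G1 at chr17:4269259-4366628. UBE2H, the E2 of the CTLH ligase, had a signal of 11.7, 10.1 and 10.0 in SRMS shRNA libraries and 12.6, 13.2 and 11.9 in vector libraries. Its log2 fold change of -0.24 (adjusted p = 0.0278) was lost without vector replicate 1 or 2 or SRMS shRNA replicate 2 or 3 (adjusted p = 0.0628, 0.105, 0.0917 and 0.0942). It was also lost under median scaling (-0.08, adjusted p = 0.394), quantile scaling (-0.09, adjusted p = 0.362) and with the trend for length and GC taken out (-0.06, adjusted p = 0.469). UBE2Q1 had a signal of 133, 131 and 124 in SRMS shRNA libraries and 114, 120 and 118 in vector libraries, a log2 fold change of 0.14 (adjusted p = 0.0123).

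The other members of this group did not pass in the main test. UBE2L3, which works with HECT and RBR ligases such as parkin, was at 131 ± 7.32 in SRMS shRNA and 128 ± 6.12 in vector cells, and UBE2Q2 at 22.8 ± 1.04 in SRMS shRNA and 24.5 ± 0.976 in vector cells (SD, n = 3 each). Only median scaling called UBE2L3 higher (0.20, adjusted p = 0.0079). UBE2W, which marks protein N-termini, had 17, 17 and 6 reads in SRMS shRNA libraries and 20, 34 and 43 reads in vector libraries. The log2 fold change of -0.42 (adjusted p = 0.0546) passed with the block (adjusted p = 0.022) and without SRMS shRNA replicate 1 (adjusted p = 0.00912). UBE2L5 and UBE2Q2P16 stood below a signal of 1 in every library. UBE2Q2P16 was called lower under quantile scaling (-0.44, adjusted p = 0.0358) and with the trend for length and GC taken out (-0.69, adjusted p = 0.000303).

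**Figure D3:**
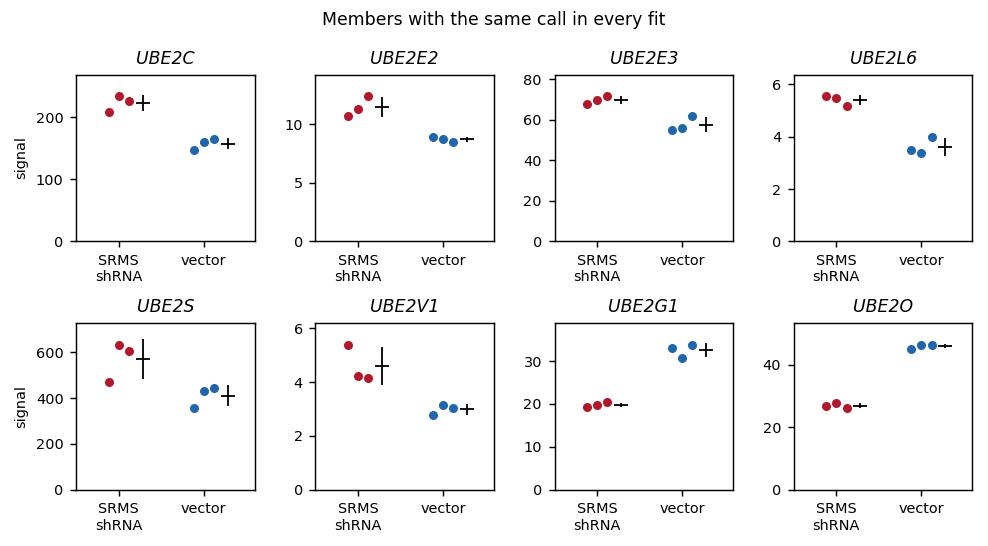
Signal in each library for the 8 UBE2 genes with the same call in the main test and all 17 alternatives, SRMS shRNA left and vector right. Points are replicates 1 to 3, and the cross gives the mean with its SD. UBE2C, UBE2E2, UBE2E3, UBE2L6, UBE2S and UBE2V1 were higher, and UBE2G1 and UBE2O lower.

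Upstream of the E2 enzymes, 13 of 14 genes for ubiquitin and ubiquitin-like proteins were higher and none lower. The median of their log2 fold changes was 0.29. Over all genes 26.6% were higher and 30.2% lower, and among genes of up to 1956 nt 49.8% were higher. UBL5, a ubiquitin-like protein, was at 134.9 ± 2.47 in SRMS shRNA and 94.5 ± 4.93 in vector cells (SD, n = 3 each), and RPS27A and FAU, which encode a ubiquitin and a ubiquitin-like fusion with ribosomal proteins, were each higher at 0.45. Transcripts of the 14 genes are short, with a median of 1672 nt. With the trend for length and GC taken out 8 of the 14 were higher, beside 27% of all genes. Of 10 E1 genes 3 were higher and 3 lower, and of 8 genes of the E2 fold outside the UBE2 names 4 were higher and 2 lower, among them ATG10 at 0.62, UFC1 at 0.35 and BIRC6 at -0.40.

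The balance between near relatives was compared in 13 pairs, and in 8 of them the groups did not overlap, a share close to the 62.7% of single genes without overlap. In each pair, the log2 ratio of one gene to the other within each library was compared between groups by a two-sided exact permutation test, in which 3 libraries against 3 cannot give a p below 0.1. The ratio of UBE2G1 to UBE2G2 was -1.97, -1.85 and -1.84 in SRMS shRNA libraries and -1.13, -1.12 and -1.01 in vector libraries, a difference of -0.80 (exact permutation p = 0.1, adjusted p = 0.1625). The ratio of UBE2V1 to UBE2V2 was -3.32, -3.80 and -3.81 in SRMS shRNA libraries and -4.29, -4.33 and -4.36 in vector libraries, a difference of 0.68 (exact permutation p = 0.1). UBE2M to UBE2F differed by 0.51, UBE2L6 to UBE2L3 by 0.48, UBE2Q1 to UBE2Q2 by 0.25 and UBE2A to UBE2B by 0.19, all without overlap. UBE2D4 to UBE2D3 differed by -0.48 and UBE2J1 to UBE2J2 by -0.12, also without overlap. The ratio of UBE2M to UBE2F is uncertain. UBE2F had 8 to 33 reads per library, a signal close to the 0.5 added before ratios were taken. The groups overlapped in the other 5 pairs, where UBE2C to UBE2S differed by 0.04 (exact permutation p = 0.7). After adjustment no pair could pass. Ratios were not recomputed with the trend for length and GC taken out, and many pairs join transcripts of unlike length. In the blocked fit without that trend UBE2J1 was at 0.05 and UBE2J2 at -0.19, the reverse of their order in the main fit. UBE2V1 was at 0.46 and UBE2V2 at 0.01, and UBE2L6 at 0.26 and UBE2L3 at 0.04. These and the other pairs without overlap kept their order.

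**Figure D4:**
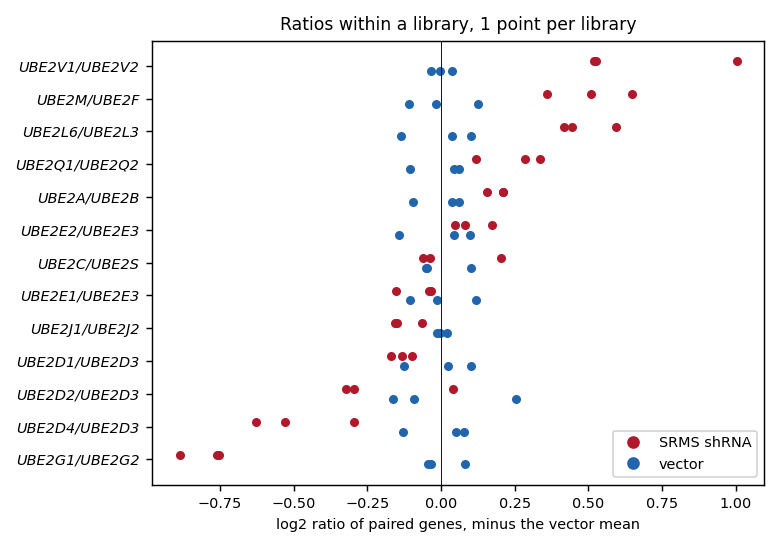
Log2 ratio of paired UBE2 genes within each library, minus the mean of vector libraries, 1 point per library, SRMS shRNA in red and vector in blue. UBE2V1/UBE2V2 lies to the right and UBE2G1/UBE2G2 to the left of the vector points without overlap.

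Direction followed transcript length in the family as in all genes. Across genes, which share the 6 libraries, Spearman's rho between length and log2 fold change was -0.609 over the 35 members and -0.456 over all 14029 genes. The higher members had a median transcript of 1722 nt (850 to 3210) and the lower members one of 5151 nt (3122 to 5436). Among genes of up to 1956 nt, the shortest of 4 equal bins, 7 of 10 members were higher and 0 lower, beside 49.8% higher and 7.98% lower of all genes there. In the longest bin, from 4795 nt, 0 of 5 members were higher and 3 lower, beside 9.98% and 52.5% of all genes.

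**Figure D5:**
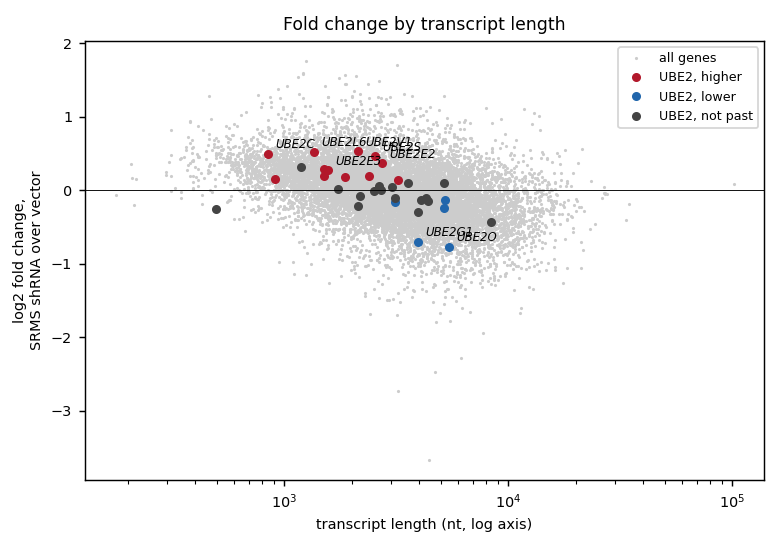
Log2 fold change, SRMS shRNA over vector, against transcript length in nt on a log axis, for all 14029 genes (light grey) and 34 of the 35 UBE2 genes (coloured by call). The higher UBE2 genes have transcripts of 850 to 3210 nt and the lower ones of 3122 to 5436 nt.

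UBE2G1 also carries the hexamer CGTGTC in its 3′ UTR, a word that had been picked earlier from the fold changes of these very libraries, so it lends no independent support. Its site (chromosome 17, bases 3584 to 3589 of transcript ENST00000396981.6, GENCODE 29) and the coding sites of the relatives UBE2Q1 (chromosome 1) and UBE2Q2 (chromosome 15) are shown for comparison, with the hexamer in capitals.
UBE2G1: atatgaggttgaCGTGTCatactaaggtaa
UBE2Q1: cacacaggaagaCGTGTCttcagaagatga
UBE2Q2: ggggaagatgtcCGTGTCagggctcaaggc
The bases around the hexamer differ between the sites. Among UBE2 genes 2 of 35 hold the hexamer in the 3′ UTR (5.71%), UBE2G1 and UBE2V2, beside 1339 of all genes (9.54%). UBE2O, which had the larger decrease, holds none there. UBE2Q1, with a coding site, was higher.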

How the data were processed

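Poly(A) RNA of ES-2 cells was sequenced in stranded paired-end libraries, per the labels' protocols. The submitters' processing notes list edgeR, StringTie, HISAT2, cutadapt and FastQC with build GRCh38. Not given in the sources used here are versions, the use of strand in counting and the filter applied to low genes. The deposited values are named log CPM but are a linear signal, reads divided by an effective library size by the authors. Divided by the value of 1 read, at least 99.993% of values in each library came out whole (within 0.1).

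Of 14042 rows, 13 Y copies of pseudoautosomal genes were left out. Limma 3.58.1 (R 4.3.3) with a mean-variance trend tested log2(signal + 0.5) in 3 SRMS shRNA against 3 vector libraries, without a block, with Benjamini-Hochberg adjustment over 14029 genes and a threshold of 0.05. Fold changes on that scale understate those of low genes. The code was tested on simulated data. edgeR 4.0.16 was run on the recovered reads as an alternative. Exact permutation tests used scipy 1.17.1. Coordinates and lengths are from GENCODE 29, 1 transcript per gene. The members and lists were chosen with earlier results of these data known. The rule names every member and up to 4 genes with the smallest adjusted p of each other list, and ISG15 was added. A few genes that the rule picks, 1 member among them, and 1 list are not reported here; counts include them.

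Deviations from group means correlated between same-numbered libraries (r = 0.309, 0.106 and 0.12 across genes), each over 0.1, so blocked values are given beside results whose call they change, although replicates 2 and 3 correlated as much when crossed (0.113 and 0.114). Replicate 1 stood apart from replicates 2 and 3 in both groups. The alternatives were 2 scalings, 2 pseudocounts, a filter on low genes, no trend, the block, the block with length and GC, edgeR, each library left out, replicate 1 of both groups left out and replicates 2 and 3 averaged.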

Additional observations from a re-analysis of the deposited data

How the results depend on the processing

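Of the 35 UBE2 genes, 6 were called higher and 2 lower in all 17 alternatives, and 6 were called in none. Under median scaling 6254 of all genes were higher and 2510 lower, and 17 members were higher and 2 lower. Lower members numbered 10 with the replicate block (34.3% of all genes lower), 9 with replicate 1 of both groups left out (33.2%) and 2 with replicates 2 and 3 averaged (23.5%). Leaving out 1 library gave 3 to 6 lower and 9 to 14 higher members, 3195 to 3891 higher and 3697 to 4433 lower genes. edgeR on recovered reads gave 12 higher and 5 lower members, and 3893 higher and 4165 lower genes in all. A filter at a mean log2 value of 1 kept 30 of the 35 members. Among members called in the main test, the sign turned under median scaling for UBE2K (0.035, adjusted p = 0.517) and UBE2Z (0.0037, adjusted p = 0.945). It turned with the replicate block and the trend for length and GC taken out for UBE2T (-0.15), UBE2K (0.084) and UBE2M (-0.0060). In that setting UBE2T was called lower and UBE2K higher, each the opposite of its main call, and UBE2M did not pass. Uncalled members near 0 also changed sign in these settings, and of them UBE2J2 was called lower with that trend taken out (-0.19). The cause was not tested. The block alone changed the calls of 8 members, of which 7 are named with it in the results, and no other call. Members under about 50 reads per library (UBE2F, UBE2L5, UBE2NL, UBE2Q2P16 and UBE2W) are limited by depth.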
